A study of Mus musculus with 9 samples.

Results

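Transcripts of 10 genes known from the testis were followed in arrays of mouse perigonadal white fat: Prm1, Prm2, Tnp1, Tnp2, Crisp2, Fabp9, Odf1 and Akap4, which are known from developing sperm cells, and Hsd3b6 and Star, which belong to steroid hormone synthesis. They are 10 of the 16299 genes for which the array has probe sets with a single gene symbol, and all 10 were found, with 62 probe sets in all. Every probe set whose only symbol is one of these genes was used, with no filter on intensity, and the probe sets of a gene were summarised to 1 level per array. The 10 genes were chosen by measured values of these same arrays, among them the low Prm2, Fabp9 and Crisp2 signals of LCS fat, and every comparison of the 3 groups is counted as used in that choice. Their levels and differences are therefore a description, and no test is given for them.

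The fat was taken from mice aged 4 months. The 9 arrays form 3 groups of 3: mice homozygous for the G609G allele (G609G/G609G), mice homozygous for the LCS allele (LCS/LCS), and wild type mice (WT). Both are known as alleles of Lmna, which encodes lamin A and lamin C: G609G is a progeria allele that gives the shortened lamin A called progerin, and LCS yields lamin C without lamin A. No sex, strain or treatment is given. Nothing says that each array holds a different animal, so a p-value speaks only for the spread among these arrays, and that spread may be technical. A level is a log2 intensity, so 1 unit is a doubling of signal, and a difference is a difference of group means on that scale.

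In the testis, germ cells pass from spermatogonia through spermatocytes to spermatids, which remodel into sperm. Late in that course histones are replaced first by transition proteins and then by protamines, while the tail acquires its outer dense fibres and fibrous sheath. Leydig cells lie between the tubules and make testosterone from cholesterol. Perigonadal fat of male mice surrounds the epididymis, the duct in which sperm mature and are stored. In RNA of a whole tissue, fewer cells of a type and less RNA per cell cannot be told apart.

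Upstream sequences are shown for the protamine and transition protein genes, whose products share the packaging of sperm DNA, and for Akap4, which also held a CRE-like match. RefSeq windows of GRCm38.p6 were held for 7 of the 10 genes, in 8 windows. The last 150 bases before the annotated transcript start are given 5′ to 3′ on the strand of the gene. Capitals mark matches, on either strand, to the CRE-like letters TGACNTCA, the TATA box letters TATAAA or the NR5A1 site letters AAGGTCA.
Prm1, chr16:10796824-10796973, minus strand: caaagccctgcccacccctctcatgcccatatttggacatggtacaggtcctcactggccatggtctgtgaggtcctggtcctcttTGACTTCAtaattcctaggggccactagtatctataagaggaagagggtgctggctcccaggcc
Prm2, chr16:10792106-10792255, minus strand: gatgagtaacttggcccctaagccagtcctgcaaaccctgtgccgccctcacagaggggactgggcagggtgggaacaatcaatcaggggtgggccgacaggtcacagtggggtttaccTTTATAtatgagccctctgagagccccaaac
Tnp2, chr16:10788656-10788805, minus strand: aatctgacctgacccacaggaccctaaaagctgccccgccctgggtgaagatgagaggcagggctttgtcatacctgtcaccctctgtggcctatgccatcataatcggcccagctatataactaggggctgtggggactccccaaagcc
Tnp1, chr1:73015900-73016049, minus strand: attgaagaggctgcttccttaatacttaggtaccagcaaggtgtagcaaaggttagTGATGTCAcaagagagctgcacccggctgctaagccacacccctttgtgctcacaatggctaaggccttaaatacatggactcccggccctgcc
Akap4, chrX:7067365-7067514, plus strand: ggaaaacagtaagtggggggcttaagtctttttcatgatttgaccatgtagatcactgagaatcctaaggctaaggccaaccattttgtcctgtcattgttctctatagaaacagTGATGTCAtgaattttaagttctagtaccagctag

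A CRE-like match began 64 bases before the start of Prm1, 94 before Tnp1 and 35 before this start of Akap4. Over all 32851 RefSeq windows, 7.49% held such a match in their 250 upstream bases. Prm2 held TATA box letters 31 bases before its start and the NR5A1 letters 212 bases before it, outside the stretch shown. TATA box letters were found in 12.4% of all windows and the NR5A1 letters in 4.08%. Crisp2 held the TATA box letters at 118 and 97 bases before its start. The windows of Tnp2 and Hsd3b6 and a second window of Akap4 held none of these letters, which says nothing about the factors themselves. No match overlapped another, and a match is a description of the letters and not of a bound site.

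The background of the arrays was read from 888 olfactory receptor genes, most of which are expected to be silent in fat. Their 95th percentile lay at 6.14 ± 0.07 in G609G, 5.17 ± 0.06 in LCS and 5.17 ± 0.07 in WT (SD, n = 3 arrays each). The G609G values were shifted: the median difference of all 16299 genes was -0.29 in G609G minus WT and 0.03 in LCS minus WT. This shift depended on the level, since it was 0.06 over the 4075 dimmest genes, -0.44 over the 4075 brightest and 0.45 over the olfactory receptor genes. G609G differences of the 10 genes are therefore given as deposited and also with each array set relative to the median gene. Other G609G differences are as deposited unless said, and neither scale is right for genes of every level. All 10 genes lay above the olfactory 95th percentile in WT, 6 did in G609G and 5 in LCS. A difference against a group that lies under that level may understate the change.

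**Figure D1:**
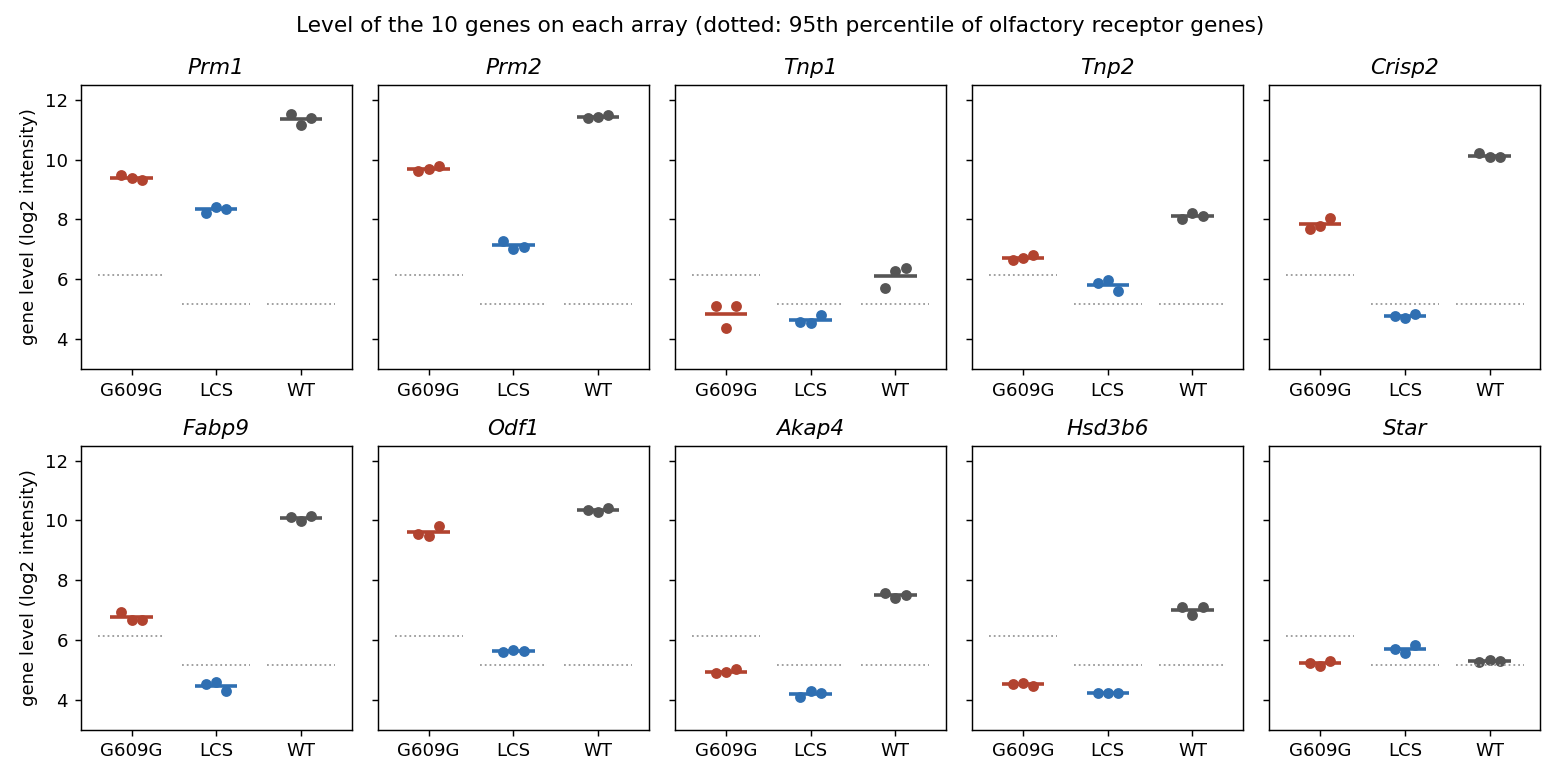
Level of each of the 10 genes on every array, as log2 intensity on the vertical axis, for the G609G, LCS and WT groups. Points are arrays, solid bars group means, and dotted lines the 95th percentile of 888 olfactory receptor genes in that group; 9 genes have their WT arrays highest, while the Star levels of the groups lie between 5.22 and 5.70.

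Across the 8 spermatid genes the order of the group means was the same, with WT highest, G609G between and LCS lowest. All 3 LCS arrays lay under all 3 WT arrays for 8 of 8 genes, as they did for 18.3% of all genes. All G609G arrays lay under all WT arrays for 8 of 8 as well, a direction found for 55.7% of all genes, or 37.0% relative to the median gene. As deposited, G609G lay above LCS without overlap in 7 of 8, Tnp1 being the exception, against 16.0% of all genes. By limma, 14.0% of all genes were called higher in G609G minus LCS, but 34.5% relative to the median gene. Olfactory receptor genes had a median of 4.10 in G609G and 3.58 in LCS, so a mutant gap near background cannot be told apart from that shift. The counts of the 8 genes follow from how they were chosen and are read no further. The median difference over the 8 genes was -3.81 in LCS minus WT, with a range of -5.61 to -1.47. In G609G minus WT it was -1.86, with a range of -3.33 to -0.74, and became -1.57 when set relative to the median gene.

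Protamines are the small arginine-rich proteins that package sperm DNA, and Prm2 showed the wider gap between the mutants of the 2 genes. Its level was 9.63, 9.70 and 9.77 on the G609G arrays, 7.27, 7.03 and 7.10 on the LCS arrays, and 11.40, 11.44 and 11.49 on the WT arrays. The 3 groups stood apart with no overlap, WT arrays being highest and LCS arrays lowest. Prm2 was thus 19.9-fold lower in LCS than in WT, a log2 difference of -4.31 (SE 0.07). In G609G minus WT the difference was -1.74, or 3.34-fold lower, and relative to the median gene -1.46, or 2.74-fold lower. The means of each of its 8 probe sets kept the order WT, G609G, LCS, with LCS minus WT running from -4.71 to -1.52 between them. At 4743936 the G609G and LCS arrays overlapped, with a difference of 0.14.

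Prm1, the other protamine, had levels of 9.50, 9.38 and 9.32 in G609G, 8.23, 8.41 and 8.37 in LCS, and 11.53, 11.17 and 11.41 in WT. The groups did not overlap, and the gap between G609G and LCS was narrower than for Prm2, at 1.07 against 2.57. The fold below WT was 8.20 in LCS, and 3.92 in G609G as deposited or 3.22 relative to the median gene. With the median of its probe sets G609G minus LCS was 1.67. Its 4 probe sets were not alike: 5019081 differed by -4.61 in LCS minus WT, while 4694341 differed by -1.19 and had LCS arrays at 9.73, 9.91 and 9.97 beside WT arrays at 11.12, 11.12 and 10.94. All 4 nevertheless had every WT array above every mutant array. At 4694341 and 4770831 the G609G and LCS arrays overlapped, with differences of 0.17 and 0.18.

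The transition proteins, which bridge the exchange of histones for protamines, had smaller differences from WT in LCS than the protamines. Tnp2 had levels of 6.63, 6.72 and 6.80 in G609G, 5.89, 5.98 and 5.59 in LCS, and 8.02, 8.23 and 8.11 in WT. The groups stood apart, with 4.92-fold less signal in LCS than in WT and 2.65-fold less in G609G as deposited, or 2.17-fold relative to the median gene. With the median of its 3 probe sets in place of the summary used here, the Tnp2 difference was -1.53 in LCS minus WT, against -2.30, and G609G minus LCS turned to -0.073, from 0.90. With quantile normalization G609G minus WT was -0.83, against -1.40. Tnp1 was near background, at 5.09, 4.36 and 5.09 in G609G, 4.58, 4.55 and 4.81 in LCS, and 5.70, 6.26 and 6.39 in WT. Its WT arrays were the highest, and the G609G and LCS arrays overlapped. Both mutant means lay under the olfactory 95th percentile, so the differences of -1.47 (SE 0.21) in LCS minus WT and -1.27 (SE 0.21) in G609G minus WT rest on dim values, the second being -0.99 relative to the median gene and -0.84 with quantile normalization. Without G609G replicate 3 the G609G minus LCS difference of Tnp1 turned to -0.12, from 0.20.

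Prm1, Prm2 and Tnp2 lie next to each other on chromosome 16, with Prm3, a further protamine-like gene, between Prm2 and Tnp2 in the RefSeq table. Prm3 did not share the pattern. It had a level of 6.69 ± 0.05 in G609G, 6.62 ± 0.02 in LCS and 6.55 ± 0.24 in WT (SD, n = 3) over 5 probe sets. Neither comparison with WT passed the limma test across all genes, at 0.14 in G609G (adjusted p = 0.273) and 0.08 in LCS (adjusted p = 0.699). Relative to the median gene it passed as higher in G609G, by 0.43 (adjusted p = 0.00783).

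The widest gap between the 2 mutants was that of Odf1, which encodes a main protein of the outer dense fibres of the sperm tail. Its level was 9.56, 9.47 and 9.81 in G609G, 5.60, 5.68 and 5.64 in LCS, and 10.34, 10.29 and 10.41 in WT. G609G arrays lay just under the WT arrays, whereas LCS arrays were far below both. Odf1 was 26.2-fold lower in LCS than in WT (log2 difference -4.71, SE 0.08), but 1.66-fold lower in G609G as deposited and 1.37-fold relative to the median gene, and with quantile normalization its G609G difference was -0.39. G609G exceeded LCS by 3.98, and the 6 probe sets repeated this, with G609G minus WT between -1.05 and -0.15 and LCS minus WT between -5.35 and -3.36.

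Akap4, the X-linked gene of the main fibrous sheath protein, behaved otherwise. It had levels of 4.89, 4.92 and 5.02 in G609G, 4.10, 4.28 and 4.22 in LCS, and 7.58, 7.42 and 7.50 in WT. In this summary both mutants lay far under WT and under the olfactory 95th percentile. The fold below WT was 9.84 in LCS, and 5.88 in G609G as deposited or 4.83 relative to the median gene. With the median of probe sets the log2 differences were larger, at -3.91 in LCS and -3.14 in G609G. Probe sets differed widely. At 4725106 the means were 8.55 in G609G, 5.93 in LCS and 11.15 in WT, and at 4954843 they were 7.25, 5.96 and 9.48. No background level was computed for single probe sets. G609G exceeded LCS without overlap in 4 of the 8 probe sets, by 1.09 to 2.63, while 4764404 and 5141563 differed from WT by at most 0.33 in either mutant.

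Fabp9, a fatty acid-binding protein of testis and sperm, showed a large difference in both comparisons with WT. It had levels of 6.92, 6.67 and 6.67 in G609G, 4.52, 4.60 and 4.29 in LCS, and 10.11, 9.99 and 10.15 in WT. The 3 groups were separate, and the LCS arrays lay inside the range of the olfactory genes. Fabp9 was 49.0-fold lower in LCS (log2 difference -5.61, SE 0.10) and 10.1-fold lower in G609G, or 8.25-fold relative to the median gene. Since its LCS level and that of Crisp2 are at background, the order of their LCS differences is not read, and with the median of probe sets Crisp2 has the larger one (-5.91 against -5.55). It belongs to a family with the fat cell gene Fabp4, which had levels of 11.97 ± 0.06 in G609G, 12.64 ± 0.03 in LCS and 12.52 ± 0.00 in WT (SD, n = 3) and so did not share the pattern.

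Crisp2, a cysteine-rich protein of the acrosome and sperm tail, followed Prm2 closely. Its level was 7.67, 7.79 and 8.05 in G609G, 4.76, 4.71 and 4.84 in LCS, and 10.21, 10.08 and 10.10 in WT. The groups did not overlap, and LCS was again under the olfactory 95th percentile. The fold below WT was 41.0 in LCS, and 4.90 in G609G as deposited or 4.02 relative to the median gene. The means of all 10 probe sets kept the order WT, G609G, LCS. At 4416080, 4495901 and 4790896, however, the G609G and LCS arrays overlapped, with differences of 0.13, 0.24 and 0.25. Its relative Crisp1, an epididymal secretory protein, did not share the pattern in G609G, with levels of 12.84 ± 0.01 in G609G, 11.11 ± 0.08 in LCS and 12.73 ± 0.06 in WT.

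**Figure D2:**
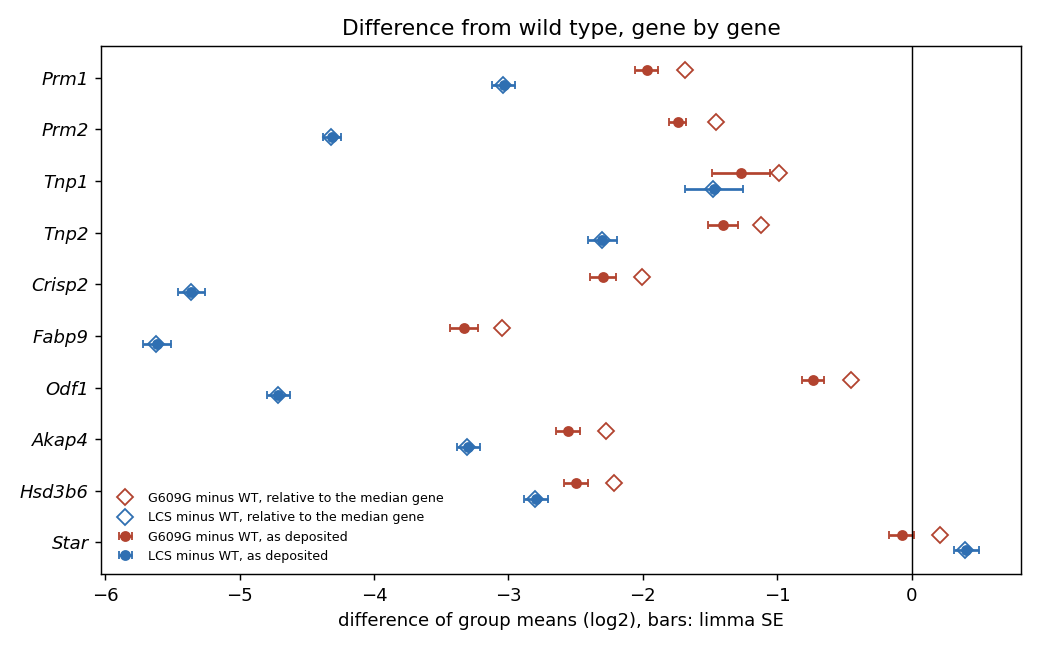
Difference of each mutant from WT for the 10 genes, on the horizontal log2 axis. Filled circles are values as deposited with limma standard errors and open diamonds values relative to the median gene. Odf1 has the smallest G609G difference of the spermatid genes (-0.74) beside a large LCS difference (-4.71). Star lies at -0.07 in G609G and 0.41 in LCS as deposited.

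Counted over probe sets, 47 belong to the 8 spermatid genes. The LCS mean was under the WT mean in 47 of 47 and the G609G mean in 47 of 47. In 44 the means kept the order WT, G609G, LCS. In 43 every WT array lay above every array of both mutants. These counts follow from how the genes were chosen and are read no further. No share over all probe sets was computed, but G609G arrays lay wholly under WT arrays for 55.7% of all genes and LCS arrays for 18.3%. Across the 9 arrays, which share the 3 genotype groups, the levels of Prm1 and Fabp9 correlated with r = 0.995 and those of Odf1 and Tnp1 with r = 0.667. These correlations describe the group pattern and carry no test.

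**Figure D3:**
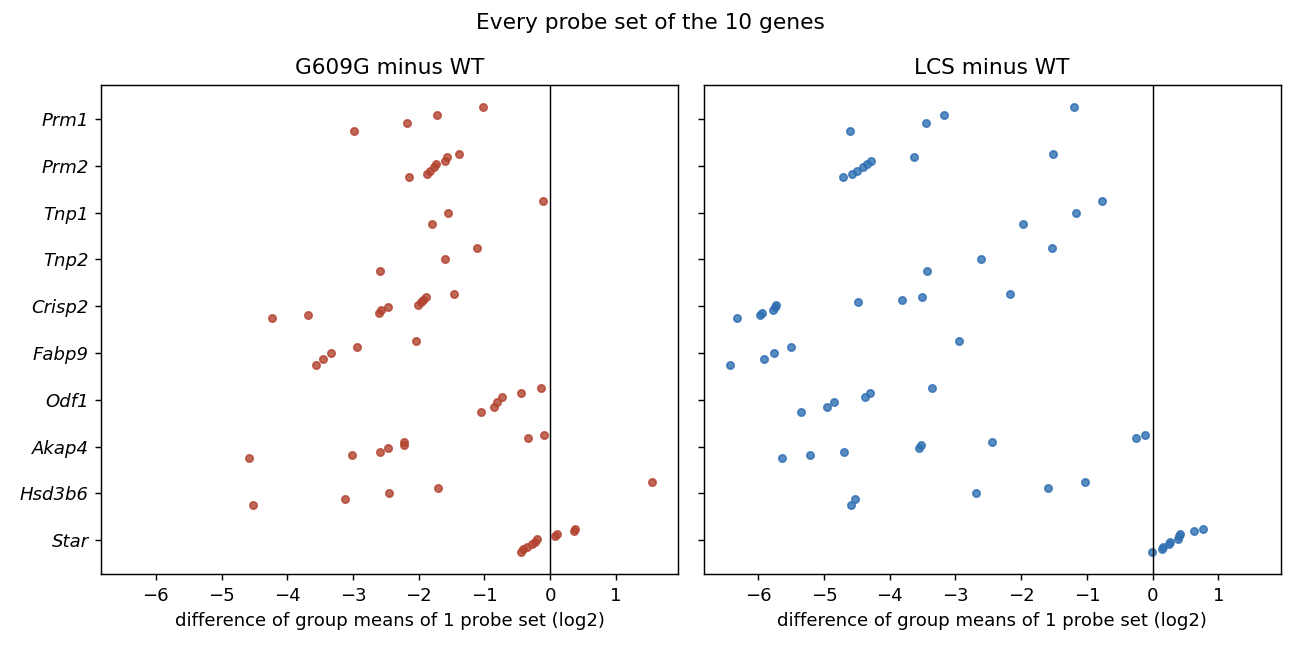
Difference from WT of every one of the 62 probe sets of the 10 genes, G609G on the left and LCS on the right, on a horizontal log2 axis with genes down the page. All 47 probe sets of the 8 spermatid genes lie below 0 in both panels, and 1 of 5 Hsd3b6 probe sets lies above 0 in G609G.

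The pair of steroid genes did not behave alike. Hsd3b6 encodes a mouse 3β-hydroxysteroid dehydrogenase isoform known from Leydig and adrenal cells. Its level was 4.53, 4.55 and 4.47 in G609G, 4.23, 4.22 and 4.21 in LCS, and 7.10, 6.85 and 7.09 in WT. Both mutants were far under WT and within the range of the olfactory genes. The log2 difference was -2.79 (SE 0.09) in LCS minus WT, and -2.50 (SE 0.09) in G609G minus WT as deposited or -2.21 relative to the median gene. These sizes depend on the summary, since the median of probe sets gave -3.20 for G609G and -4.16 for LCS against WT. Probe set 4647293 went another way in G609G, with 9.37, 9.59 and 9.48 there, 7.05, 7.04 and 6.61 in LCS, and 7.38, 7.76 and 8.66 in WT. The other 4 probe sets had every WT array above every mutant array. Genes of this family are close copies, and signal of one may reach probe sets of another. Whether it did so at 4647293 was not tested. Hsd3b1, Hsd3b2, Hsd3b3 and Hsd3b5 had G609G means of 3.91, 3.54, 3.99 and 3.75. Hsd3b7 had 7.62 in G609G, 9.22 in LCS and 9.14 in WT. Of 2 probe sets shared with other Hsd3b genes, 5160274 had 6.31, 6.18 and 5.52 in G609G, 5.15, 5.30 and 5.10 in LCS, and 7.32, 7.49 and 7.25 in WT.

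Star carries cholesterol into mitochondria, the first step of steroid synthesis. It had levels of 5.25, 5.13 and 5.30 in G609G, 5.71, 5.57 and 5.83 in LCS, and 5.26, 5.34 and 5.29 in WT. The LCS arrays were the highest and did not overlap those of the other groups, while G609G and WT overlapped. The difference of LCS minus WT was 0.41 (SE 0.09), and that of G609G minus WT -0.07 as deposited but 0.21 relative to the median gene, so its direction turns with the scaling. LCS lay above WT without overlap in 25.8% of all genes, and G609G below LCS without overlap in 54.9%. The G609G mean of 5.22 lay under the olfactory 95th percentile, and the WT mean of 5.30 only just above it.

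The label of these 2 genes as Leydig cell transcripts was set against other genes of that cell type. Of 10 measured, 6 lay above the olfactory 95th percentile in G609G, 5 in LCS and 6 in WT. Cyp11a1, the side chain cleavage enzyme that begins steroid synthesis, had levels of 3.54 ± 0.13 in G609G, 3.80 ± 0.02 in LCS and 3.95 ± 0.04 in WT (SD, n = 3). Hsd17b3, Hsd3b1 and Nr5a1, named after their values were seen, were also under that level in every group. Hsd3b1 was nevertheless called lower by limma, by -0.85 in LCS (adjusted p = 1.29e-04) and -0.41 in G609G (adjusted p = 0.00572, and -0.12 relative to the median gene). Of the 10 genes 4 were lower and 4 higher in LCS, beside 11.2% and 15.7% of all genes. In G609G 9 were lower beside 54.8%, or 4 beside 36.4% relative to the median gene. Insl3 and Cyp17a1 lay well above the olfactory 95th percentile in WT. The list also holds genes that are not confined to Leydig cells, such as Scarb1, so these counts are no measure of that cell type. Genes of the list were thus above background in part only, and Hsd3b6 and Star are called steroid genes here. Insl3, a hormone of Leydig cells with 1 probe set, had 8.30 ± 0.28 in G609G, 8.50 ± 0.16 in LCS and 9.59 ± 0.10 in WT. It was lower in both, by limma across all genes, with adjusted p = 3.26e-06 in G609G and 6.31e-05 in LCS.

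Cyp17a1, the hydroxylase and lyase on the way to androgens, had a level of 8.06 ± 0.15 in G609G, 4.85 ± 0.18 in LCS and 8.60 ± 0.06 in WT (SD, n = 3). It fell by 3.76 on the log2 scale in LCS minus WT (SE 0.11, adjusted p = 5.29e-10) and by 0.55 in G609G minus WT (SE 0.11, adjusted p = 0.000722), or -0.26 relative to the median gene. This uneven pair of differences resembles that of Odf1 in these arrays. Sult1e1, the oestrogen sulfotransferase, was higher in LCS (1.16, SE 0.10, adjusted p = 6.21e-06), and Scarb1, the receptor that takes up cholesterol from lipoproteins, was lower in G609G (-0.87, SE 0.06, adjusted p = 2.93e-07, and -0.58 relative to the median gene). The Leydig cell and adrenal cortex lists held 14 measured genes, neither Hsd3b6 nor Star among them. Of these, 4 were lower and 6 higher in LCS, where 11.2% and 15.7% of all genes were. In G609G 9 were lower and 2 higher, against 54.8% and 13.0% of all genes. Relative to the median gene 4 were lower and 3 higher, against 36.4% and 32.3%. The higher ones included the corticotropin receptor Mc2r and its accessory protein Mrap, both also made by fat cells. Mrap differed by 1.27 in G609G minus WT (adjusted p = 2.47e-09) and 0.44 in LCS minus WT (adjusted p = 8.19e-05).

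Germ cell genes outside the 8 were taken from lists of textbook markers, none of them a member. The lists were drawn up with earlier results of these data known, so their counts are no independent support for the 8. In LCS 65 of 86 were lower and 1 higher by the limma test, or 75.6% lower beside 11.2% of all genes, where 27.0% were called in either direction. Their median difference was -0.75, against 0.03 over all genes. In G609G 66 were lower and 0 higher as deposited, or 76.7% beside 54.8% of all genes, where 67.8% were called in either direction. The count of 0 higher was also 0 at an unadjusted limma p under 0.05 and 0 by the methods' t-test at its fold. Relative to the median gene 51 were lower and 9 higher, with 36.4% and 32.3% of all genes. The median was then -0.46, against -0.01 over all genes.

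Among 52 spermatid genes 48 were lower in LCS, or 92.3% beside 11.2% of all genes. In G609G 44 were lower, or 84.6% beside 54.8%. Relative to the median gene 37 were lower and 1 higher in G609G, where 36.4% and 32.3% of all genes were. The list medians were -0.96 in both comparisons as deposited. Smcp, a cysteine-rich protein of the sperm mitochondrial capsule, had 10.41 ± 0.04 in G609G, 6.95 ± 0.16 in LCS and 10.95 ± 0.06 in WT (SD, n = 3). Its difference was -4.00 (SE 0.07, adjusted p = 1.75e-11) in LCS and -0.55 (SE 0.07, adjusted p = 4.64e-05) in G609G, or -0.26 relative to the median gene, and thus resembled that of Odf1. Ldhc, the lactate dehydrogenase of germ cells, had 4.86 ± 0.06 in G609G, 4.18 ± 0.07 in LCS and 8.63 ± 0.25 in WT, and so was low in both mutants, as was the sperm surface gene Adam3 (4.23 ± 0.07 in G609G, 3.89 ± 0.07 in LCS, 7.33 ± 0.12 in WT). Dkkl1, a protein of the acrosome, went the opposite way to Smcp, with 5.49 ± 0.17 in G609G, 7.20 ± 0.05 in LCS and 8.11 ± 0.08 in WT. The G609G minus LCS test over the 52 genes called 16 higher and 6 lower as deposited, and 33 higher and 3 lower relative to the median gene. All genes gave 14.0% higher and 52.4% lower, and 34.5% and 36.1% relative to the median gene.

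Spermatocyte genes were lower in a larger share of their list than all genes, most clearly in LCS, whereas spermatogonium genes in G609G were not. Of 21 spermatocyte genes 14 were lower and 1 higher in LCS, or 66.7% lower beside 11.2% of all genes. In G609G 17 were lower, or 81.0% beside 54.8%, and relative to the median gene 10 were lower and 3 higher, or 47.6% lower beside 36.4%. Mael, a factor of transposon silencing in meiotic cells, had 4.39 ± 0.00 in G609G, 3.68 ± 0.09 in LCS and 8.44 ± 0.09 in WT (SD, n = 3), with adjusted p = 1.72e-11 in LCS. The cohesin subunit genes Stag3 and Smc1b fell by less, with differences in LCS of -1.35 and -0.93. The heat shock gene Hspa2 differed by -1.31 in G609G (-1.02 relative to the median gene) and -0.46 in LCS. Of 13 spermatogonium genes 3 were lower in LCS, or 23.1% beside 11.2% of all genes. In G609G 5 were lower, or 38.5% beside 54.8% of all genes, and relative to the median gene 4 were lower and 5 higher, or 30.8% lower beside 36.4%. Ddx4, a helicase of the germ line, had 4.46 ± 0.05 in G609G, 4.15 ± 0.14 in LCS and 6.76 ± 0.16 in WT. Dazl, a germ cell RNA-binding protein, differed by -1.05 in G609G (-0.76 relative to the median gene) and -1.14 in LCS. Gfra1, a receptor that other cells also carry, differed by -3.08 in G609G (-2.80 relative to the median gene) and -0.49 in LCS. Whether the stages differ in their response was not tested.

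**Figure D4:**
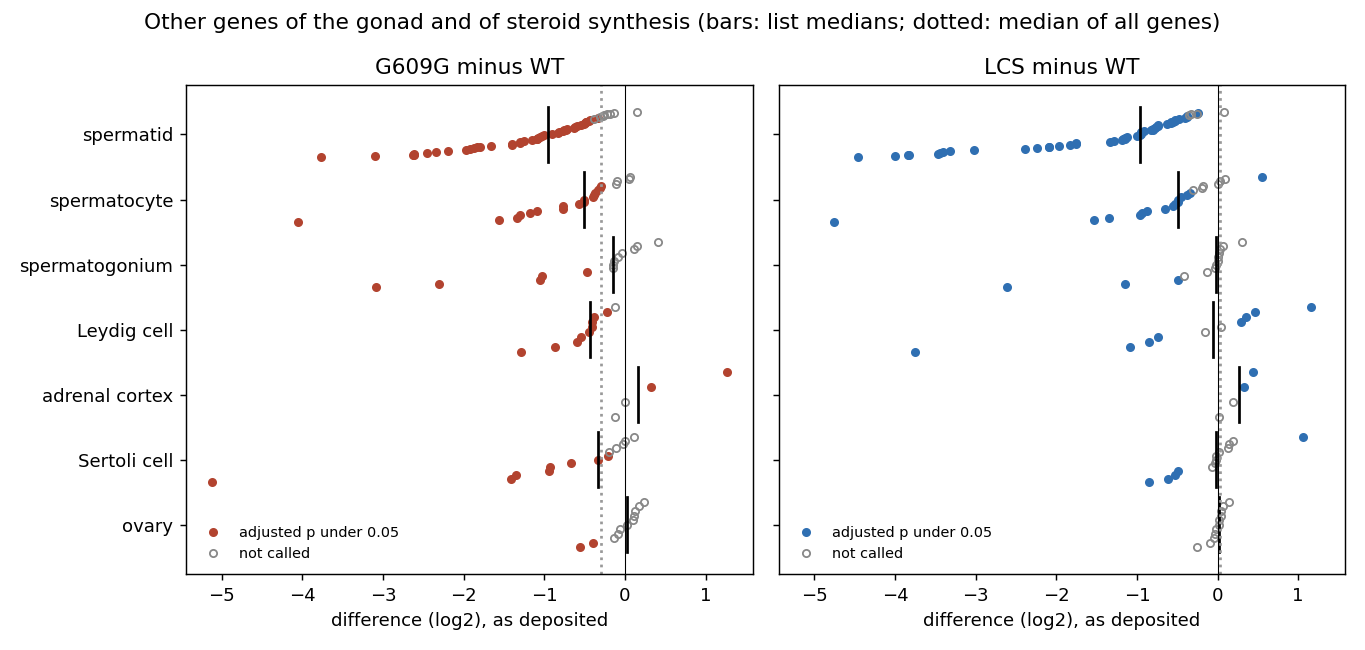
Difference from WT, as deposited and in log2 units on the horizontal axis, of single genes from lists of gonad and adrenal cortex markers. G609G is on the left and LCS on the right. Filled points have a limma adjusted p under 0.05, black bars are list medians and the dotted line is the median of all genes; the spermatid list has its median at -0.96 in both panels, while the ovary list lies near 0.

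Other tissues of the region were read from the same arrays. Both Y-linked genes with a single-symbol probe set lay above background in every group, Eif2s3y at 8.55 ± 0.13 in G609G, 8.91 ± 0.03 in LCS and 8.93 ± 0.03 in WT, and Kdm5d at 6.94 ± 0.15, 7.90 ± 0.07 and 7.81 ± 0.14 in the same order (SD, n = 3). Of 11 ovary genes limma called 0 in LCS, with 1 at an unadjusted p under 0.05 and 0 by the methods' t-test at its fold, and in G609G called 2 lower, Amhr2 and Foxl2. Relative to the median gene the balance turned, with 6 of the 11 higher and 1 lower in G609G, beside 32.3% and 36.4% of all genes. Of 13 Sertoli cell genes 4 were lower and 1 higher in LCS, beside 11.2% and 15.7% of all genes. In G609G 8 were lower, a share of 61.5% beside 54.8% of all genes. Relative to the median gene 6 were lower and 1 higher in G609G, beside 36.4% and 32.3% of all genes. Cst12 differed by -5.12 in G609G and 1.06 in LCS, and Sox9, Cldn11 and Aard by -1.42, -1.36 and -0.94 in G609G. Genes of the accessory glands stayed under the olfactory 95th percentile in every group, 0 of 8 being above it, with Pate4 called lower in LCS (-0.31) and Tgm4, Svs2 and Svs4 higher in G609G (0.22, 0.38 and 0.43). These are no larger than the shift of 0.45 over the olfactory receptor genes in G609G, and relative to the median gene 8 of 8 were called higher there.

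Epididymal genes as a list differed from WT in another pattern than the spermatid genes, with a median difference of -5.72 in G609G and 0.22 in LCS. Of 14, 13 were lower and 1 higher in G609G, where 54.8% and 13.0% of all genes were. Relative to the median gene 12 were lower and 1 higher there, where 36.4% and 32.3% of all genes were. In LCS 4 were lower and 7 higher, beside 11.2% and 15.7% of all genes. Their summed intensity, as log2, ran from 14.2 to 14.3 in G609G, 16.0 to 16.1 in LCS, and was 16.2 on every WT array. Spint4, a protease inhibitor gene of the epididymis, had 12.35 ± 0.04 in G609G, 4.80 ± 0.33 in LCS and 12.80 ± 0.01 in WT (SD, n = 3), the same order of groups as Odf1. Rnase9 (10.20 ± 0.06 in G609G, 9.23 ± 0.05 in LCS, 12.11 ± 0.10 in WT) and Lcn5 (11.48 ± 0.06, 11.86 ± 0.01 and 13.38 ± 0.01) were lower in both. Cst11, Lcn8 and Lcn12 were lower in G609G, by -6.65, -8.15 and -3.17, and differed by 0.50, 0.34 and 0.02 in LCS. The part of epididymal tissue in the spermatid gene levels was not tested.

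Skeletal muscle genes were higher in G609G in 10 of 10, beside 13.0% of all genes, among them Tnnt3, Atp2a1 and Tnni2 (7.73, 8.03 and 7.17). In LCS 2 of 10 were higher, Acta1 (1.61) and Pvalb (0.45), a share near the 15.7% of all genes. The summed intensity of the muscle genes ran from 15.4 to 15.5 in G609G, was 11.0 on every LCS array, and ran from 9.63 to 9.76 in WT. Fat cell genes were present throughout. Adipoq had 12.55 ± 0.04 in G609G, 13.39 ± 0.02 in LCS and 13.35 ± 0.05 in WT (SD, n = 3), and Cidec, Fabp4, Lipe, Plin1 and Pparg were above background in every group. The exception was Lep, at 4.76 ± 0.08 in G609G, 11.78 ± 0.03 in LCS and 10.63 ± 0.06 in WT. The part of muscle RNA and of the lower G609G signal in the spermatid gene levels was not tested.

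The genes whose levels over the 9 arrays were most like the mean of the 8 spermatid genes were searched among 3215 whose group means span at least 1 log2 unit. In order of Pearson r they were Tcfap2b, Cuzd1, Iqcf3, Isg20, Pde8b, Fhl4, Mthfd1l, Ncam1, AY761185 and Gsg1, with r from 0.998 to 0.995. Iqcf3 had 6.59 ± 0.10 in G609G, 4.20 ± 0.04 in LCS and 9.45 ± 0.18 in WT (SD, n = 3), and Fhl4 7.29 ± 0.14, 4.94 ± 0.20 and 10.04 ± 0.08 in the same order. Tcfap2b, a transcription factor gene, had 7.42 ± 0.06 in G609G, 5.75 ± 0.15 in LCS and 9.28 ± 0.07 in WT. Cuzd1 was high in every group, at 12.03 ± 0.01 in G609G, 11.47 ± 0.03 in LCS and 12.56 ± 0.05 in WT, so likeness in pattern went with unlike sizes. Nearest to Hsd3b6 were Mael, Cmtm2a, Adam3, Ldhc and Ttll13 (r from 0.998 to 0.997). Nearest to Star were P2rx5, Eef2k, Nr1h3, Slamf6 and Sec14l4 (r from 0.969 to 0.948). With 3 groups setting most of the spread, such r values are high for many genes and are given without a test.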

How the data were processed

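Total RNA was hybridised to Affymetrix exon arrays in 1 colour. Log2 intensities of 229581 probe sets on 9 arrays were deposited by the authors. How they were normalized is not stated in the sources used, and the submitters' processing notes name build mm9. Gene names came from the platform annotation: 208397 probe sets have 1 symbol, 3965 several and 17219 none. Probe sets of a gene were summarised by median polish (at most 10 rounds). All 16299 genes were fitted without an intensity filter with limma on the 9 arrays together (lmFit, then eBayes with its trend option), and p-values were adjusted by Benjamini-Hochberg and called under 0.05. Values relative to the median gene are those left after each array is shifted so that its median gene deviates by 0. Of 188 listed genes in 12 lists, 165 were measured, 4 through a synonym. The members and lists were chosen with earlier results of these data known.

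Named genes are the 10 members, up to 3 called genes of lowest p per list and comparison with WT, all Y-linked and adipocyte genes, the nearest genes in pattern, and neighbours or relatives of a member. Hsd17b3, Nr5a1 and Hsd3b1, the last also a relative of Hsd3b6, were named after their values were seen. Arrays of a group correlated with r from 0.972 to 0.990, and at most 1.89% of values were identical between arrays. Deviations of same-numbered G609G and WT arrays gave r = 0.15, 0.11 and 0.30. As all exceed 0.1, the numbers may pair these arrays, from the data only. The reported fits have no block, and the fit with one is an alternative. LCS and WT arrays gave -0.13, 0.17 and 0.07, which does not pair them. Upstream sequences and gene order came from RefSeq, assembly GRCm38.p6. The steps were tested on simulated data. The software was R 4.3.3 with limma 3.58.1 and data.table (1.17.8), and Python 3.11.15 with matplotlib 3.10.9. The number of arrays limits the precision.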

Additional observations from a re-analysis of the deposited data

How the results depend on the processing

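Alternatives were another probe set summary, another normalization or centring, a filter on low values, another variance model, the compared groups alone, a replicate block, the study's unpaired test and leaving out each array. Over 30 differences of the 10 genes under 390 such values, 4 turned in sign: Star in G609G minus WT gave 0.30 with quantile normalization and 0.21 relative to the median gene, Tnp2 in G609G minus LCS gave -0.073 with the median of probe sets, and Tnp1 there gave -0.12 to 0.41 when 1 array was left out, the lowest without G609G replicate 3. The spermatid median of LCS minus WT was -3.59 with the mean and -4.07 with the median of probe sets, and that of G609G minus WT -1.76 with the median of probe sets, -1.47 with quantile normalization and -1.57 relative to the median gene; leaving out 1 array gave -3.89 to -3.78 and -1.95 to -1.83. The 66 germ cell calls in LCS minus WT ran from 44 to 69, and the 66 in G609G minus WT from 45 to 71. The lowest counts came with the filter, where only 50 of the 86 genes were tested, and the methods' t-test gave 47 and 48 of 86. In G609G minus LCS 31 germ cell genes were called, but 53 with quantile normalization (45 higher, 8 lower), 62 relative to the median gene and 20 by the methods' t-test at a fold of 1.5. In G609G minus WT, 7 genes of the Leydig cell and adrenal cortex lists were called relative to the median gene. With the filter 7 of 8 were called (fewer genes tested), and by the methods' t-test 4. That test called 5 of these genes for LCS minus WT and 5 for G609G minus LCS. For LCS minus WT, G609G minus WT and G609G minus LCS, that test called 1266, 5829 and 6059 genes, against 4399, 11053 and 10824 by limma, and 4054, 9186 and 9519 after Benjamini-Hochberg without the fold. Quantile normalization gave 5796 genes higher and 4624 lower in G609G minus WT, and relative to the median gene 5261 and 5933, against 2127 and 8926. Causes not named here were not tested. With the replicate block the germ cell calls were 66 for LCS minus WT, 68 for G609G minus WT and 31 for G609G minus LCS; no count moved by more than 1.5 times under the block. All 10 genes passed the filter on low values. Intensity near background limits Tnp1, Star, the mutant levels of Akap4 and Hsd3b6, and the LCS levels of Fabp9 and Crisp2.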
